A study of Mus musculus with 8 samples.

Results

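Markers of 2 cell types of the liver that are not endothelial, hepatic stellate cells and mesothelial cells, were followed in libraries labelled as liver microvascular endothelial cells (ECs) of the mouse. The markers were 9 genes named for their cell type, among 22520 genes in the table. They were chosen with earlier results of these data known. The 6 stellate markers were Lrat, Reln, Hand2, Ngfr, Des and Lhx2. The 3 mesothelial markers were Wt1, Msln and Upk3b. The comparison asked how much signal of each marker the EC libraries held and whether it differed between genotypes.

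The 4 WT libraries came from LRP1 f/f; Cdh5-CreER-/- mice and the 4 LRP1 eKO libraries from LRP1 f/f; Cdh5-CreER+/- mice, all C57BL/6 and at postnatal day 14. Both genotypes therefore carried the floxed Lrp1 allele. The study's methods list the floxed line under a mixed strain name, so that the background is not settled here. The Cre recombinase, fused to an estrogen receptor domain and driven by the Cdh5 promoter of endothelial cells, was carried by LRP1 eKO mice only, so that effects of the recombinase itself cannot be told apart from those of losing Lrp1. The study's methods state that ECs were selected on beads with a PECAM-1 antibody, and the labels call the material liver microvesicular cells. Sex, the inducing treatment, pooling of animals and any culture before RNA extraction are not given in the sources used here. The replicates are numbered but not tied to animals, so the p-values measure the spread between libraries, which may be technical.

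Hepatic stellate cells lie between hepatocytes and the sinusoidal endothelium, store vitamin A as retinyl esters, and turn into matrix-producing myofibroblasts after injury. Mesothelial cells form the epithelial sheet that covers the liver surface and carry keratins together with mesenchymal genes. In the embryo, Wt1-positive mesothelium gives rise to part of the stellate cells, so that the 2 lineages share several transcription factors.

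The values are quantile-normalized signal, in which a gene takes a value set by its rank within its library. The totals of the libraries lay between 484440 and 485950, as this step makes them, and the depth is unknown. Lrp1, the targeted gene, fell from 65.5 ± 13.3 in WT to 4.41 ± 1.65 in LRP1 eKO libraries (SD, n = 4 each), or 6.74% of WT, with no overlap of the groups (limma, log2 fold change -3.66, SE 0.23, adjusted p = 2.8e-06). Each library listed between 6186 and 6621 genes at 0. LRP1 eKO replicate 2 and WT replicate 4 stood apart within their groups, being farthest from the group median for 37.5% and 62.0% of the tested genes. Where leaving out either or both changed a call or moved a value by over 1.5 times, such a value is given.

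The label was checked against markers first. Wt1, Msln, Upk3b and Des each exceeded all 10 pan-endothelial genes in all 8 libraries. The mean signal over the 8 libraries was 1162 for Msln, 383 for Upk3b, 101 for Wt1 and 43.2 for Des, whereas the 10 endothelial genes lay between 0.416 for Tek and 18.4 for Eng. Dividing by transcript length kept this order, with 537 signal units per kb for Msln, 108 for Upk3b, 32.5 for Wt1 and 14.3 for Des, against 0.0894 to 8.80 per kb for the endothelial genes. Because the unit before normalization is not stated, signal already scaled by length would here be divided by it a second time. Pecam1, whose protein was the target of the bead selection, averaged 2.09 ± 0.416 over the WT and 3.02 ± 0.911 over the LRP1 eKO libraries (adjusted p = 0.11), and without LRP1 eKO replicate 2 it was higher (log2 fold change 0.52, adjusted p = 0.012). Cdh5, the cadherin of endothelial junctions, averaged 1.86 ± 0.43 and 3.70 ± 1.34 (log2 fold change 0.68, adjusted p = 0.020), with overlap of the groups, and it missed the threshold without LRP1 eKO replicate 1 (adjusted p = 0.053) or 3 (0.057) and in the fit of all genes (0.093). The libraries thus held far more signal of mesothelial markers than of the genes that define their label, and they are called by their label below only as a name.

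**Figure D1:**
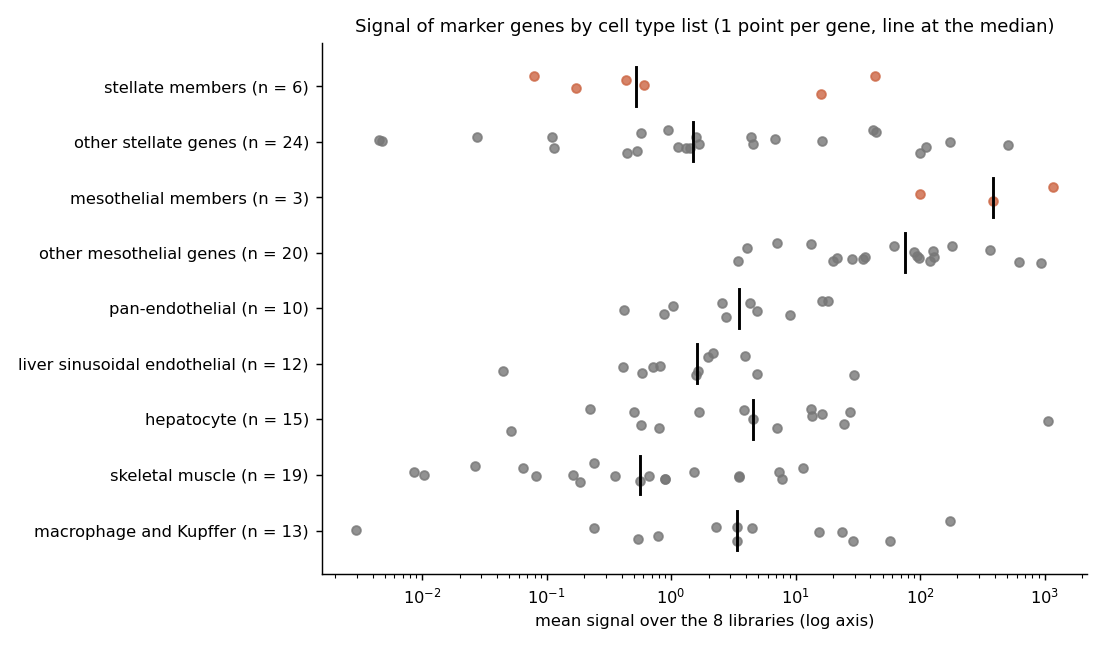
Mean signal over the 8 libraries (x axis, log scale) of each gene in 9 marker lists (y axis, n is the number of genes in the table), with 1 point per gene, the followed markers in orange and a black line at the list's median. The 3 mesothelial markers lie between 101 and 1162, whereas 4 of the 6 stellate markers lie below 1 and the 10 pan-endothelial genes lie between 0.416 and 18.4.

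The markers split by cell type in their level. All 3 mesothelial markers were near the top of the 22520 genes in mean signal, with Wt1 at the 96.6, Upk3b at the 99.1 and Msln at the 99.8 percentile. The stellate markers were spread widely. Des stood at the 92.1 and Hand2 at the 80.4 percentile, whereas Lhx2, Reln, Ngfr and Lrat stood between the 46.7 and the 36.8 percentile and did not pass the filter, which asked for at least 4 libraries with a signal of 1 or more. Per transcript length the order ran from Msln at 537 to Lrat at 0.0148 signal units per kb and was the same as by signal, except that Ngfr (0.0496) stood above Reln (0.0371). The limit of the unknown unit applies to this order too. Because the isolated cells were profiled in bulk, fewer cells of a type and less RNA per cell cannot be told apart.

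Against WT, 3 of the 9 markers were higher in LRP1 eKO libraries at an adjusted p under 0.05, 0 were lower and none reached a 2-fold change on the log2(signal + 1) scale, on which changes are given unless stated otherwise. Of the 5 markers that passed the filter, Hand2 and Msln were higher, where 19.0% of all 11391 tested genes were called higher, 22.2% lower and 1.66% changed at least 2-fold. Of the 4 below the filter, Lhx2 was higher in a fit of all genes, in which 8.07% were called higher and 10.6% lower. Among the 11129 genes below the filter, this fit called 226 higher and 416 lower. The groups did not overlap for 2 of the 5 markers past the filter and for 1 of the 4 below it, beside 42.6% of all genes past the filter and 13.7% of those below it with a value above 0. The changes were small, and the median absolute log2 fold change was 0.0972 over the 5 markers past the filter and 0.166 over all genes past it. These counts are too small to be read as different from the background.

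**Figure D2:**
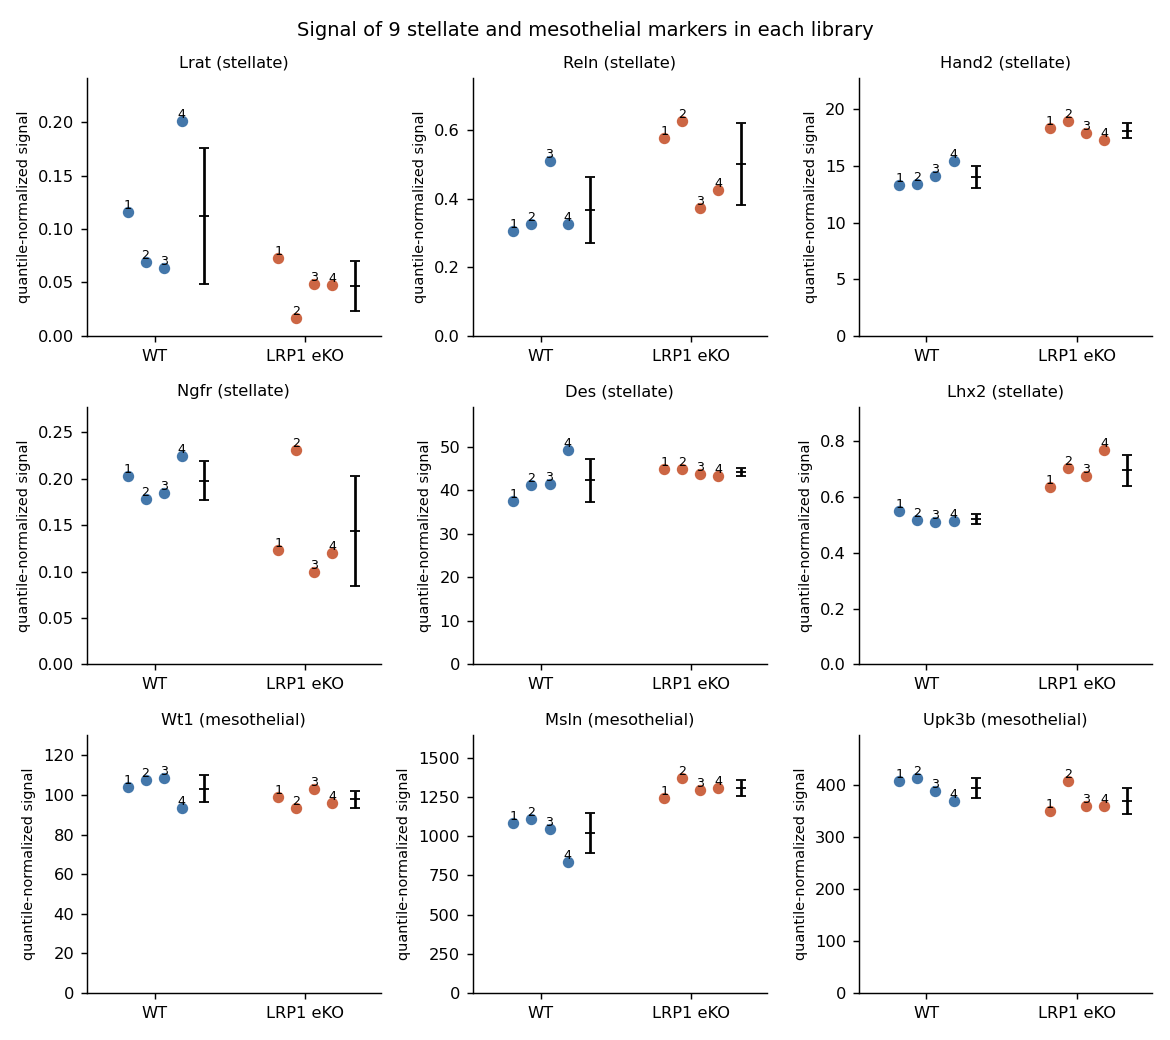
Quantile-normalized signal (y axis, from 0) of each of the 9 markers in each library of WT and LRP1 eKO mice (x axis), with the replicate number above each point and the mean and SD (n = 4) in black beside each group. The groups are separate for Hand2 (13.3 to 15.4 and 17.3 to 18.9), Lhx2 (0.509 to 0.548 and 0.636 to 0.768) and Msln (837 to 1111 and 1245 to 1370), and they overlap for the other 6 markers.

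Hand2, a basic helix-loop-helix transcription factor that is needed for heart, limb and sympathetic development and is kept on in quiescent stellate cells, was higher in LRP1 eKO libraries. The gene lies on chr8:57320983-57324633 (+ strand, GRCm38). Its signal was 13.3, 13.4, 14.1 and 15.4 in the WT libraries and 18.3, 18.9, 17.9 and 17.3 in the LRP1 eKO libraries. Every LRP1 eKO library was above every WT library, with means of 14.1 ± 0.978 and 18.1 ± 0.673 (SD, n = 4 each), 1.29 times as high. The log2 fold change was 0.35 (SE 0.06, 95% CI 0.22 to 0.47, limma adjusted p = 0.0012), and it lay between 0.32 and 0.39 when any 1 library was left out, with all 8 of these fits past the threshold. The noncoding gene Hand2os1 overlaps Hand2 on the opposite strand, and since the strand setting of the counting is not stated, its reads cannot be separated.

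Lhx2, a LIM homeodomain transcription factor that restrains stellate activation in the embryonic liver, rose from a low level. Its signal was 0.548, 0.517, 0.509 and 0.512 in WT and 0.636, 0.702, 0.675 and 0.768 in LRP1 eKO libraries, again without overlap. The means were 0.521 ± 0.0177 and 0.695 ± 0.0555 (SD, n = 4 each), 1.33 times as high. In the fit of all genes the log2 fold change of signal + 1 was 0.16 (SE 0.02, 95% CI 0.10 to 0.21, adjusted p = 0.0065), a scale that understates changes of low genes. It passed in all 8 fits with 1 library left out (0.14 to 0.17) and missed the threshold when the replicate number was a block (adjusted p = 0.056). At this level, beside the mesothelial markers, the source of the signal was not tested. Lhx2 spans chr2:38339281-38369733 (+ strand) and overlaps 2 antisense genes.

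The start regions of 7 of the 9 markers were found among RefSeq promoter sequences of GRCm38.p6 (250 bases before to 50 after the start), and none was found for Msln and Wt1. With 2 starts for Lhx2 this gave 8 regions. The 4 shown, of Hand2, Upk3b, Lrat and the second start of Lhx2, are those with a match to a motif searched, and the regions of Des, Reln, Ngfr and the first start of Lhx2 had none. Capitals mark matches on either strand to 4 short motifs: CATCTG, an E-box bound by Hand2 and Twist1, CATTCC, bound by the TEAD family, AGATAA, bound by factors of the Gata family, and TAATTA, bound by LIM homeodomain factors. All are printed 5′ to 3′ on the gene's strand. Hand2 lies at chr8:57320733-57321032 (+), Lhx2, at its second start, at chr2:38351058-38351357 (+), Upk3b at chr5:136038246-136038545 (+) and Lrat at chr3:82903925-82904224 (-).
Hand2: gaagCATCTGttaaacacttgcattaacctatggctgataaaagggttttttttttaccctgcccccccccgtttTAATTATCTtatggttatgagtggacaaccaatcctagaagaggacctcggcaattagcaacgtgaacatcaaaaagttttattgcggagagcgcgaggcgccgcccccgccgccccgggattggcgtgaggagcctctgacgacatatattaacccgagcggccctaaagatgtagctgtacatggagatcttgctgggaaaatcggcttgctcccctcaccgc
Lhx2: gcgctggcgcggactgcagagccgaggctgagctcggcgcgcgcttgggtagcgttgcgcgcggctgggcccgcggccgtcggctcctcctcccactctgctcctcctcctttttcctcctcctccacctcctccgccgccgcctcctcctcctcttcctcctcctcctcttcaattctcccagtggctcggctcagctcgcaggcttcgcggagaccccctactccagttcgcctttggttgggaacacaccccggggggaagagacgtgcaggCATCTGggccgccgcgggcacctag
Upk3b: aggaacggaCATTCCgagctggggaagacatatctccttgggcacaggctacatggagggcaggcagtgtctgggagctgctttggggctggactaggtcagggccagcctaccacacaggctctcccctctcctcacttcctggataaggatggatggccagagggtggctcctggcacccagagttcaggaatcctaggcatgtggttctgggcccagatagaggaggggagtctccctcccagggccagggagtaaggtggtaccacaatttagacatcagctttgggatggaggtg
Lrat: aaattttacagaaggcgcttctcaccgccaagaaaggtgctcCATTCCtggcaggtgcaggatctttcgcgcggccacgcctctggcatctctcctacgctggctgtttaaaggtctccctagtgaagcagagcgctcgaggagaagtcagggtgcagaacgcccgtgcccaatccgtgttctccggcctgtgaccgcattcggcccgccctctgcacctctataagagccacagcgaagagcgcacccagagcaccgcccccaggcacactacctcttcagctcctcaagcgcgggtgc

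Counting the start base as 0, the Hand2 region held CATCTG at -246, TAATTA at -175 and TTATCT, the reverse complement of AGATAA, at -172, the last 2 overlapping by 3 bases. CATTCC lay at -241 in Upk3b and at -208 in Lrat, and CATCTG at 25 in Lhx2. Among 32851 promoters of the same length, 17.2% held CATCTG, 14.7% CATTCC, 11.2% AGATAA and 5.29% TAATTA, so that matches of this kind are common. The regions differed in CpG content. That of Upk3b had 2 CpG dinucleotides (observed over expected 0.0795, lower in 10.4% of promoters), whereas that of Hand2 had 17 (0.897), that of Lrat 21 (0.777) and that of Reln 47 with 80.7% GC. A match describes letters only and was not read as a bound site.

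Des, the muscle-type intermediate filament protein that marks stellate cells in rodents, was the stellate marker with the highest signal. The gene spans chr1:75360329-75368579 (+ strand). Its signal was 37.4, 41.1, 41.3 and 49.2 in WT and 44.8, 44.9, 43.8 and 43.2 in LRP1 eKO libraries. WT replicate 4 was the highest of all 8 libraries, the other WT libraries were below all LRP1 eKO libraries, and the groups overlapped. The group means of 42.3 ± 4.98 and 44.2 ± 0.854 (SD, n = 4 each) gave a log2 fold change of 0.07 (SE 0.07, 95% CI -0.09 to 0.23, adjusted p = 0.47). Without WT replicate 4 it was 0.14 with an adjusted p of 0.026. Des is also a gene of skeletal, cardiac and smooth muscle. The summed signal of 19 skeletal muscle genes was 53.6 to 83.9 in WT and 16.1 to 17.4 in LRP1 eKO libraries. Among the WT libraries it was highest in replicate 4. That of 10 cardiac genes was 29.6 to 34.9 and 12.7 to 16.5. Of the tested genes, 7 of 7 skeletal and 4 of 5 cardiac genes were lower, beside 22.2% of all tested genes. Of those in the sums, 13 skeletal and 6 cardiac genes had a mean signal under 1. Genes this low can pass the filter through the WT group alone, so that these counts may follow in part from it. Of 9 tested smooth muscle genes, 6 were higher and 0 lower, beside 19.0% and 22.2% of all tested genes. The median mean signal of the 13 genes of this list was 1.32, with 4 under 1. Its low genes can likewise pass the filter through the LRP1 eKO group alone, so that this count carries the same limit. The parts of these tissues in the Des signal were not tested.

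Lrat, the enzyme that esterifies retinol for storage and the most widely used stellate marker, was near 0. It spans chr3:82892579-82903973 (- strand) and overlaps the antisense gene Rbm46os. Its signal was 0.116, 0.0693, 0.0633 and 0.201 in WT and 0.0733, 0.0167, 0.0483 and 0.0479 in LRP1 eKO libraries. WT replicate 4 was the highest and LRP1 eKO replicate 2 the lowest, and the groups overlapped. The means were 0.112 ± 0.0634 and 0.0465 ± 0.0232 (SD, n = 4 each), the second 0.414 times the first, and the log2 fold change of signal + 1 was -0.09 (95% CI -0.18 to 0.01, adjusted p = 0.22 in the fit of all genes). Without WT replicate 4 it was -0.05 (adjusted p = 0.27), and without both WT replicate 4 and LRP1 eKO replicate 2 it was -0.04 (adjusted p = 0.42). A difference was not detectable at this level, and the depth behind it is unknown.

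Reln and Ngfr, like Lrat, lay below the filter. Reln encodes reelin, a secreted glycoprotein made by stellate and lymphatic endothelial cells, and spans chr5:21884454-22344702 (- strand). Its signal was 0.307, 0.325, 0.510 and 0.326 in WT and 0.576, 0.625, 0.373 and 0.427 in LRP1 eKO libraries. WT replicate 3 was above 2 of the LRP1 eKO libraries, and the log2 fold change was 0.13 (95% CI -0.04 to 0.30, adjusted p = 0.28). Without both WT replicate 4 and LRP1 eKO replicate 2 it was 0.08 (adjusted p = 0.65). Prox1, the defining transcription factor of lymphatic endothelium, was also low, with 0.305 ± 0.13 in WT and 0.262 ± 0.0357 in LRP1 eKO libraries (log2 fold change -0.04, adjusted p = 0.86, and -0.11 without WT replicate 4, adjusted p = 0.075).

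Ngfr, the p75 neurotrophin receptor, lies on chr11:95568818-95587735 (- strand). Its signal was 0.203, 0.179, 0.185 and 0.225 in WT and 0.124, 0.231, 0.0998 and 0.120 in LRP1 eKO libraries. LRP1 eKO replicate 2 was the highest of all 8 libraries, whereas the other LRP1 eKO libraries were below all WT libraries. The log2 fold change was -0.07 (95% CI -0.16 to 0.02, adjusted p = 0.28), and without LRP1 eKO replicate 2 it was -0.10 with an adjusted p of 0.011. Sox10, which marks Schwann cells that also carry Ngfr, had 0.0316 ± 0.0109 in WT and 0.0133 ± 0.0122 in LRP1 eKO libraries (adjusted p = 0.17).

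Msln, which encodes mesothelin, a surface glycoprotein of mesothelium, had the highest signal of all 9 markers. It lies on chr17:25748613-25754378 (- strand) and ranked 47 to 78 among the 22520 genes in WT and 32 to 40 in LRP1 eKO libraries. Its signal was 1086, 1111, 1046 and 837 in WT and 1245, 1370, 1297 and 1307 in LRP1 eKO libraries. WT replicate 4 was the lowest and LRP1 eKO replicate 2 the highest, and the groups did not overlap. The means were 1020 ± 125 and 1305 ± 51.0 (SD, n = 4 each), 1.28 times as high. The log2 fold change was 0.36 (SE 0.08, 95% CI 0.17 to 0.55, adjusted p = 0.0075). It was 0.27 without WT replicate 4 (adjusted p = 0.0012) and 0.25 without both WT replicate 4 and LRP1 eKO replicate 2 (adjusted p = 0.0013).

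Wt1, the zinc finger transcription factor of mesothelium and its descendants, was not called. It spans chr2:105126529-105173616 (+ strand). Its signal was 104, 107, 108 and 93.3 in WT and 99.1, 93.2, 103 and 95.9 in LRP1 eKO libraries. WT replicate 4 and LRP1 eKO replicate 2 were the lowest, and the groups overlapped. The group means of 103 ± 6.91 and 97.8 ± 4.17 (SD, n = 4 each) gave a log2 fold change of -0.08 (SE 0.06, 95% CI -0.20 to 0.05, adjusted p = 0.29), so that changes beyond 0.20 in either direction lie outside the interval. Without WT replicate 4 the value was -0.12 with an adjusted p of 0.036.

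Upk3b, a uroplakin of mesothelium and urothelium, also overlapped between the groups. It spans chr5:136038496-136046487 (+ strand) and ranked 191 to 222 in the 8 libraries. Its signal was 408, 414, 390 and 371 in WT and 351, 408, 361 and 361 in LRP1 eKO libraries. LRP1 eKO replicate 2 was above the other LRP1 eKO libraries, which were all below the WT libraries. The group means of 396 ± 19.5 and 370 ± 25.7 (SD, n = 4 each) gave a log2 fold change of -0.10 (SE 0.06, 95% CI -0.23 to 0.03, adjusted p = 0.20). Without LRP1 eKO replicate 2 the value was -0.14 with an adjusted p of 0.046. Msln and Upk3b, markers of the same cell layer, therefore had estimates of opposite sign, of which only that of Msln passed the test, and the difference between them was not tested.

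**Figure D3:**
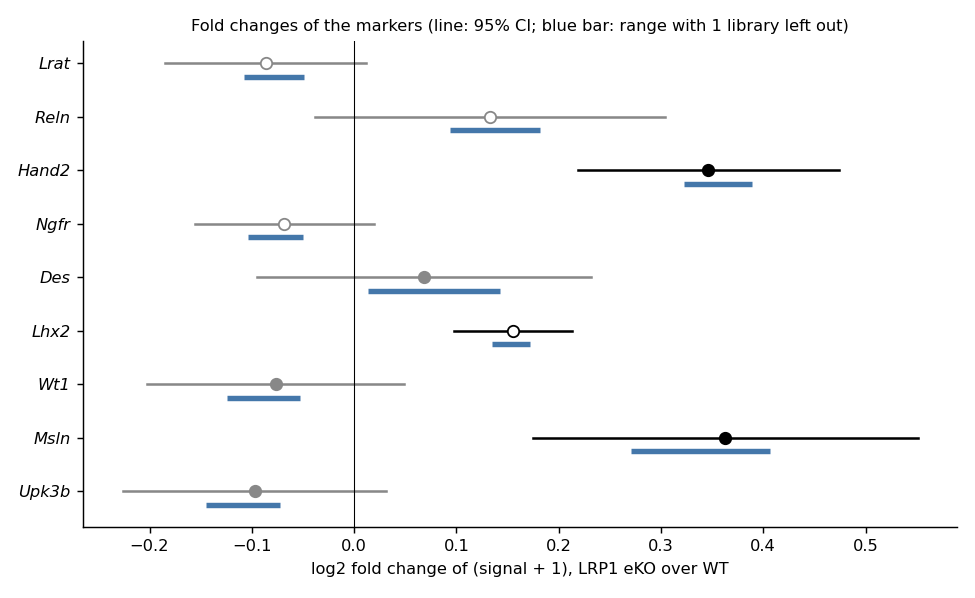
Log2 fold change of signal + 1 in LRP1 eKO over WT libraries (x axis) for each marker (y axis), with its 95% CI as a line, the range with 1 library left out as a blue bar below it, called markers in black, and open circles for markers below the filter. The intervals of Hand2 (0.22 to 0.47), Lhx2 (0.10 to 0.21) and Msln (0.17 to 0.55) lie above 0, and those of the other 6 markers include 0.

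Within genotypes the markers did not vary together as 1 block. Over the 8 libraries, with the genotype means removed, the deviations of Hand2 and Des had a Pearson correlation of 0.889 and those of Msln and Upk3b of 0.748, whereas Des and Msln had -0.863 and Hand2 and Msln -0.765. Wt1 had 0.656 with Msln and -0.701 with Hand2. These correlations describe 8 libraries that share 1 normalization, and in WT replicate 4 Hand2 and Des were high while Wt1, Msln and Upk3b were low.

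**Figure D4:**
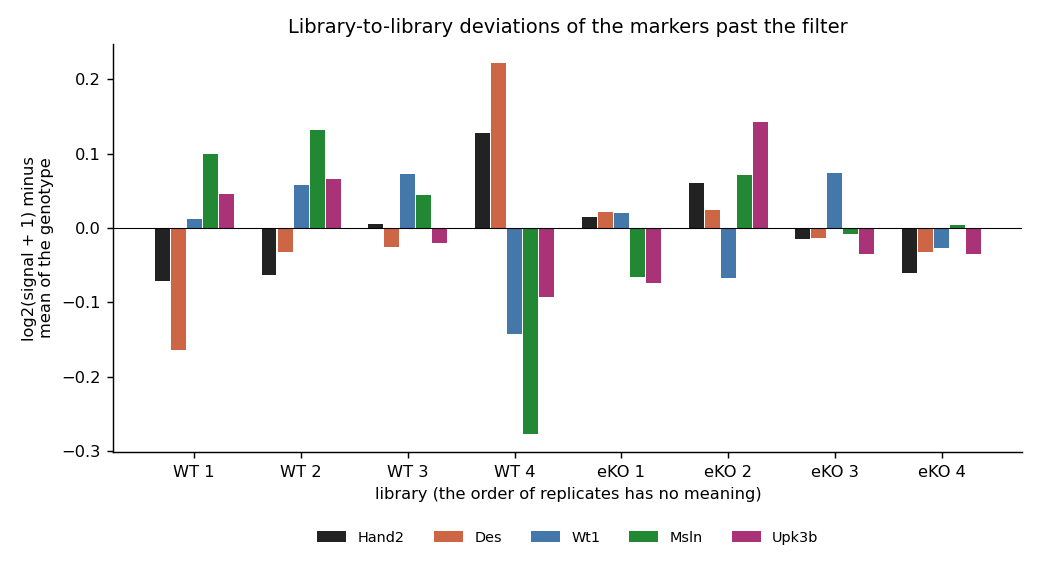
Difference of log2(signal + 1) from the mean of its genotype (y axis) for the 5 markers past the filter in each of the 8 libraries (x axis). In WT replicate 4 the bars of Hand2 and Des point up and those of Wt1, Msln and Upk3b point down, and in LRP1 eKO replicate 2 Upk3b stands highest.

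The genes whose deviations were most like those of each marker were named in the same way, among genes past the filter and over the 8 libraries. For Hand2 they were Dnajc24 (0.990), Tgif1 (0.981) and Wrnip1 (0.977), and for Des they included Acbd6 (0.995) and Pdlim3 (0.986). Pdlim3, a PDZ-LIM protein of the muscle Z-disc, fell from 2.20 to 0.596 (log2 fold change -0.99, adjusted p = 0.00022, and -1.89 as a log2 ratio of the means), while Des was not called. Pdlim3 passed the filter through the WT libraries, where it was higher. In the limma fit of all genes, which has no filter, its adjusted p was 0.0039. For Wt1 they were Heg1 (0.993), Copb1 (0.993) and Eprs (0.992), for Msln Ppp1r12a (0.993), Ptprk (0.993) and Rtn3 (0.989), and for Upk3b Slc22a23 (0.987), Ap3d1 (0.983) and Ppp1r10 (0.980). They were picked as the highest among 11391 genes and carry no test.

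Other genes of the 2 cell types were taken from lists. The counts of genes called in this and the following lists stand beside shares of 19.0% higher and 22.2% lower over all 11391 tested genes. Genes near a signal of 1 can pass the filter through only the group where they are higher. Counts of lists that hold such genes may follow in part from it. All 20 other mesothelial genes passed the filter, 7 of them with a mean signal of at least 100 and none under 1. Of these, 4 were higher, 9 lower and 7 not called, with a median log2 fold change of -0.15 (-0.01 over all tested genes). Upk1b, a tetraspanin partner of uroplakins, rose from 827 ± 41.5 to 1040 ± 51.5 (log2 fold change 0.33, adjusted p = 0.0010), like Msln. Cldn15, a claudin of tight junctions, fell from 29.6 ± 1.15 to 13.6 ± 1.17 (-1.07, adjusted p = 2.0e-06). Gpc3, a heparan sulfate proteoglycan of the cell surface, fell from 128 ± 5.15 to 68.9 ± 6.75 (-0.89, adjusted p = 1.0e-05). The mesothelial genes thus moved in both directions.

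Of the other stellate genes, 24 were in the table and 16 passed the filter, of which 4 were higher, 7 lower and 5 not called (median log2 fold change -0.06). Dcn, the matrix proteoglycan decorin that fibroblasts also make, had the highest signal and fell, with 554, 554, 563 and 581 in WT and 441, 453, 447 and 486 in LRP1 eKO libraries (-0.30, adjusted p = 0.00054). Steap4, a metalloreductase, was 163, 162, 156 and 151 in WT and 45.4, 38.4, 46.2 and 40.8 in LRP1 eKO libraries, the only gene of this list that passed the filter and was called past 2-fold on the log2(signal + 1) scale (-1.87, adjusted p = 4.7e-08). The following 3 genes were chosen after their values were seen. Tcf21, a transcription factor of mesenchyme, fell from 5.69 ± 0.90 to 3.42 ± 0.338 (-0.59, adjusted p = 0.0011). Pdgfrb, the PDGF receptor of stellate cells and pericytes, had 16.1 ± 0.733 and 16.6 ± 0.635 (0.04, adjusted p = 0.58). Colec11, a collectin of quiescent stellate cells, was below the filter, with 0.859 ± 0.179 in WT and 0.286 ± 0.0761 in LRP1 eKO libraries (-0.53, adjusted p = 0.0050 in the fit of all genes, and -1.59 as a log2 ratio of the means).

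**Figure D5:**
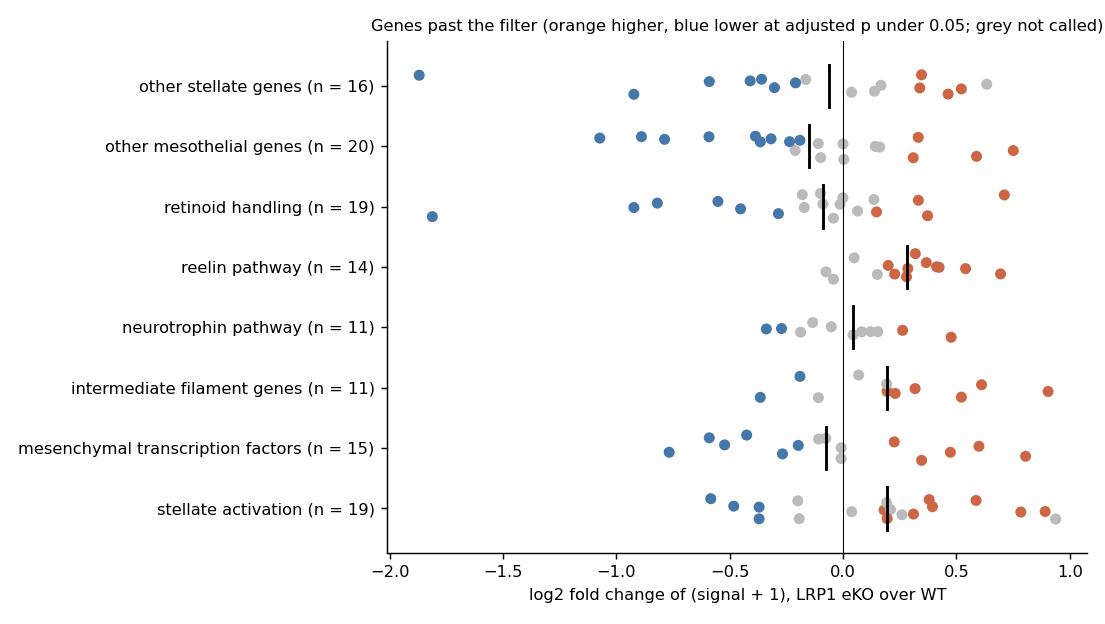
Log2 fold change of signal + 1 in LRP1 eKO over WT libraries (x axis) of every gene past the filter in 8 gene lists (y axis, n is the number of such genes), orange where higher, blue where lower and grey where not called, with a black line at the list's median. Mesothelial and stellate genes spread to both sides of 0. In the reelin list 10 of 14 genes are orange and 0 blue, beside 19.0% higher and 22.2% lower over all tested genes.

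The pathways in which the markers act were then read. In retinoid handling, the pathway of Lrat, 4 of 19 tested genes were higher, 6 lower and 9 not called (median -0.09). Aldh1a1, which oxidises retinaldehyde to retinoic acid, fell, with 474 to 496 in WT and 343 to 364 in LRP1 eKO libraries (-0.45, adjusted p = 2.0e-05), and Rbp4, the retinol carrier of plasma made mostly by hepatocytes, fell from 9.19 ± 0.50 to 1.90 ± 0.171 (-1.81, adjusted p = 7.5e-08). Of 10 tested hepatocyte genes, 10 were called lower in the same libraries, beside 22.2% of all tested genes. Hepatocyte genes summed to 1543 to 1601 in WT and to 631 to 917 in LRP1 eKO libraries. Their part in the Rbp4 value was not tested.

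In the reelin pathway 10 of 14 tested genes were higher, 0 lower and 4 not called (median 0.28), beside 19.0% higher and 22.2% lower over all tested genes. The difference from these shares was not tested. Vldlr, a receptor that binds reelin, rose from 9.13 ± 0.675 to 15.4 ± 1.70 (0.69, adjusted p = 0.00016), and Rapgef1, an exchange factor for Rap1 downstream of it, from 14.5 ± 0.845 to 21.5 ± 0.873 (0.54, adjusted p = 6.0e-05). Itgb1, the integrin beta-1 chain with the highest signal of the list, was 349, 361, 366 and 280 in WT and 384 to 402 in LRP1 eKO libraries (0.23, adjusted p = 0.041), with WT replicate 4 the lowest. Without that library the value was 0.14 (adjusted p = 0.0086). The call was lost in 7 alternatives (adjusted p = 0.052 to 0.13). Most genes of this list, among them Itgb1, act in many other pathways, and Dab1, the adaptor that defines reelin signalling in neurons, was at 0 in all 4 WT libraries and at most 0.00352 in LRP1 eKO libraries.

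In the neurotrophin pathway of Ngfr, 2 of 11 tested genes were higher, 2 lower and 7 not called (median 0.04). Bdnf, a ligand of the family, rose from 7.93 ± 0.588 to 11.4 ± 1.01 (0.48, adjusted p = 0.00083). Maged1, an adaptor of the p75 receptor, fell from 191 ± 9.08 to 151 ± 14.1 (-0.34, adjusted p = 0.0037), and Arhgdia, an inhibitor of small GTPases, rose from 314 ± 9.60 to 377 ± 26.4 (0.26, adjusted p = 0.0039). Among intermediate filament genes and their partners, the group of Des, 6 of 11 were higher, 2 lower and 3 not called (median 0.19). Cryab, the small heat shock protein that binds desmin, rose, with 1209 to 1245 in WT and 1789 to 2050 in LRP1 eKO libraries (0.61, adjusted p = 1.5e-05), and Plec, which links filaments to junctions, from 9.64 ± 1.26 to 18.9 ± 2.21 (0.90, adjusted p = 0.00011).

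Among 15 tested developmental transcription factors of liver mesenchyme, which include Hand2 and Wt1, 5 were higher, 6 lower and 4 not called (median -0.08). Hlx, a homeobox factor of visceral mesenchyme, fell from 16.1 ± 0.64 to 9.05 ± 0.43 (-0.77, adjusted p = 5.1e-06), and Klf4 rose from 8.90 ± 0.297 to 16.4 ± 2.41 (0.80, adjusted p = 9.8e-05). Of 19 tested genes of stellate activation, 8 were higher, 4 lower and 7 not called (median 0.19). Acta2, smooth muscle actin, rose from 811 ± 37.3 to 1066 ± 32.1 (0.39, adjusted p = 0.00018), and Ctgf, a matricellular protein, from 217 ± 13.1 to 373 ± 4.15 (0.78, adjusted p = 2.7e-06). Thus genes of activated stellate cells stood at a median percentile of 98.9 in mean signal, while Lrat stood at 36.8. Mesothelial cells and fibroblasts also use many of these genes, and of 9 tested portal fibroblast genes 2 were higher and 6 lower.

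The sums of the markers were set beside those of other cells of the liver. The summed signal of the 3 mesothelial markers was 1301 to 1632 in WT and 1695 to 1871 in LRP1 eKO libraries, a difference made by Msln alone, since the means of Upk3b and Wt1 were not higher in LRP1 eKO libraries. The 6 stellate markers summed to 51.9 to 65.9 and 61.8 to 65.4. The 10 pan-endothelial genes summed to at most 52.2 in WT and to 58.4 to 82.0 in LRP1 eKO libraries, with 3 of 8 tested genes higher and 0 lower, and the 12 sinusoidal endothelial genes to 39.7 to 43.0 and 41.3 to 65.9, with 2 of 6 higher. The 13 macrophage genes ranged from 111 to 217 in WT and from 52.5 to 711 in LRP1 eKO libraries, lowest in LRP1 eKO replicate 2, with 1 of 8 called. Of 6 tested lymphatic endothelial genes 2 were higher and 3 lower, and of 3 cholangiocyte genes 0 were higher and 1 lower. Of 9 Schwann and neural genes, 7 had a mean signal under 1, and the 2 that were tested were higher. The part of these cells in the values of the markers was not tested.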

How the data were processed

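mRNA-seq of 4 WT and 4 LRP1 eKO liver EC libraries was analysed, with each library assigned to its genotype by its title. The deposited table gives quantile-normalized signal of 22520 genes in 1 column per library, and all 8 columns were used. The submitters' processing notes name TopHat2, Cufflinks and mm10, whereas the paper's methods name STAR, featureCounts and edgeR. The unit of the signal before quantile normalization is not stated, so that no count test was possible, depth is unknown and no counting interval was computed. Quantile normalization removes a global shift between libraries and can give a gene identical values in 2 libraries.

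From the deposited signal, log2(signal + 1) was fitted by genotype, without covariates, in limma (version 3.58.1, R 4.3.3) with trended moderation, and p-values were adjusted by Benjamini-Hochberg over all genes tested. The filter kept the 11391 genes at or above a signal of 1 in 4 or more libraries, and genes below this were read from a fit of all 22520 genes. A gene was called at an adjusted p under 0.05. The fit was tested on simulated data before use. Gene positions and transcript lengths came from GENCODE M21 (GRCm38), in which 20947 genes had a length. The labels give the replicate numbers no shared animal or batch. Plots were made in Python 3.11.15 (matplotlib 3.10.9).

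The markers, gene lists and tests were chosen with earlier results of these data known. The rule for named genes took all 9 markers, Lrp1, from each list the gene with the highest mean and the 2 called genes with the smallest adjusted p, and for each marker past the filter the 3 genes with the most similar deviations. Not every gene of this rule is described, some genes are not reported here, and Tek, Pecam1, Cdh5, Prox1, Sox10, Dab1, Tcf21, Pdgfrb and Colec11 were named outside it, after their values were seen. Tried in turn were another pseudocount (0.1 or 5), leaving the filter out or asking for a mean of 5, limma without trend, with robust moderation or with array weights, centring on a mean trimmed by 30% at each end, a replicate block, the ratio of arithmetic means and leaving out each library in turn. Leaving out WT replicate 4 and LRP1 eKO replicate 2 together, and levels per kb, were added after the data were seen.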

Additional observations from a re-analysis of the deposited data

Results flagged for a closer look

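In groups of 4 libraries, the gap of the highest or lowest library to its nearest neighbour, divided by the range of the group, was compared with Dixon's 95% critical value. Over 20 groups examined, 2 exceeded it, where chance gives about 1. Reln in WT replicate 3 was the highest of the WT libraries, with a gap of 0.903 of the range. Upk3b in LRP1 eKO replicate 2 was the highest of the LRP1 eKO libraries, with a gap of 0.83 of the range. Without LRP1 eKO replicate 2, Upk3b was called lower (log2 fold change -0.14, adjusted p = 0.046).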

How the results depend on the processing

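Hand2 and Msln kept their direction and their call in every alternative with a test, leaving out any 1 library included. The count of genes past 2-fold was 189, 315 with a pseudocount of 0.1 and 66 with 5. With a minimum mean of 5 or with the replicate block, 1 instead of 2 stellate markers was called. With the minimum mean this follows from its construction, since Lhx2 could not enter. With the block Lhx2 was 0.16 (adjusted p = 0.056), and the other markers kept their calls. Same-numbered libraries had deviations correlated at -0.0856, -0.130, 0.178 and 0.0378, so that the numbers do not establish a pairing. With array weights 3 mesothelial markers were called instead of 1, with Wt1 at -0.10 and Upk3b at -0.16, and Des was called at 0.12. Leaving out 1 library gave 1 to 2 mesothelial markers called, and log2 fold changes of -0.104 to -0.0499 for Ngfr, 0.0139 to 0.143 for Des, -0.124 to -0.0528 for Wt1 and -0.145 to -0.0726 for Upk3b. Without WT replicate 4 and LRP1 eKO replicate 2 together, 4 stellate and 2 mesothelial markers were called, with Ngfr at -0.0934, Des at 0.13 and Upk3b at -0.18. As a ratio of arithmetic means on the log2 scale, with no pseudocount and no test, Lrat was -1.27, Reln 0.45, Ngfr -0.46 and Lhx2 0.41, and, among other genes named, Colec11 was -1.59, Pdlim3 -1.89, Rbp4 -2.27, Hlx -0.83, Sox10 -1.25 and Prox1 -0.22. Prox1, not called, lay between -0.114 and 0.00054 with 1 library left out, and changed sign without WT replicate 3. Where no reason is given, the cause was not tested. Limits are the unknown depth, the unknown unit before normalization and the ranks that it keeps: Lrat, Reln, Ngfr and Lhx2 have signals below 1, and changes of the whole library cannot be seen.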
